A study of Mus musculus with 4 samples.

Results

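Axon guidance genes are described across cell classes of the deep cerebellar nuclei of the mouse, the neurons through which the cerebellum sends its output, and the glia and vessels around them. The members are all genes whose symbol names a class 3 to 7 semaphorin, a plexin, neuropilin 1 or 2, a Slit, a Robo, an Eph receptor, an ephrin, a netrin, a netrin-G, an Unc5 gene or Dcc, and that had a count in each of the 4 libraries. Of 15632 genes listed, 68 matched and 56 were kept, among 11446 genes with a count in each library. The other 12, namely Sema4c, Plxnc1, Plxna4os3, Robo3, Efna2, Efna3, Efnb1, Epha1, Epha2, Ephb3, Ephb4 and Ephb6, are listed at 0 in at least 1 library and were left out. Unc50 and Unc5cl carry a matching symbol but are not known as netrin receptors, and their values are given apart.

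Nuclei of tissue micro-dissected from cerebellar slices were profiled by droplet-based single-nucleus RNA sequencing, with no sorting of nuclei recorded. The Ucn3-Cre line (Tg[Ucn3-cre]KF31Gsat/Mmucd), in which Cre is driven from the urocortin 3 gene, gave replicate 1 (female, 3 months, iodixanol gradient) and replicate 2 (male, 3 months, sucrose cushion). The vGluT2-Cre line (Tg(Slc17a6-icre)1Oki), in which Cre is driven from Slc17a6, gave replicate 1 (male, 2 months) and replicate 2 (female, 2.5 months), both with a sucrose cushion. All mice were C57BL/6J and carried the Ai32 allele, which makes channelrhodopsin fused to EYFP from the ubiquitous CAG promoter after Cre recombination. Nothing in the labels says how many animals made up a library, so the p-values measure the spread between these 4 libraries, which may in part be technical.

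Semaphorins are secreted or membrane-bound ligands that act mainly through plexins, and most of the secreted class 3 forms also need neuropilins as co-receptors. Slits signal through Robo receptors, ephrins through Eph receptors, and netrin 1 through Dcc, which mostly attracts growing axons, and Unc5 receptors, which mostly repel them. In the adult brain the same families act in synapse maintenance, myelination, the migration of glial precursors and the shaping of blood vessels. Netrin-Gs are lipid-anchored relatives of the netrins that sit on axons and bind NGL proteins, encoded by the Lrrc4 genes, across the synapse.

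The libraries held 4291 and 6587 nuclei in the Ucn3-Cre line and 5642 and 4974 in the vGluT2-Cre line, with 9096357 to 19125488 counts per library and a median of 1730 to 3206 counts per nucleus. Between 3 and 8 cell barcodes were shared by each pair of libraries, 41 in all. After removal of 947 likely doublets, 20547 nuclei were clustered without the member genes and assigned to classes by marker genes, so each class name stands for nuclei that resemble that cell type. The classes held 546 glutamatergic nuclear neurons, 433 inhibitory nuclear or Golgi neurons, 244 molecular layer interneurons, 5034 astrocytes, 693 oligodendrocyte precursors, 8584 oligodendrocytes, 764 microglia (19 of them in a cluster led by F13a1 and Mrc1), 723 endothelial cells and 182 mural cells. A cluster of 660 nuclei led by Cntn5 and Galntl6 (cluster 10) and a cluster of 2605 nuclei led by Piezo2, Enpp6 and Klk6 (cluster 5) stayed unnamed. Cluster 10 scored highest for inhibitory (1.57) and next for glutamatergic nuclear neurons (0.757), and cluster 5 highest for oligodendrocytes. Both met the limits on score and detected markers used for naming. Zfhx4, a listed glutamatergic marker, was among the 10 leading genes of cluster 10. Fibroblasts, 79 nuclei, were too few in each library for the tests and are given as levels only. Levels are CPM, the summed counts of a class in a library scaled to a total of 1000000, and values for the 4 libraries are given in the order Ucn3-Cre replicates 1 and 2, then vGluT2-Cre replicates 1 and 2. Means carry the SD over libraries (n = 4 unless stated). CPM are not scaled to gene length, so levels are compared between classes and not between genes.

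The class labels held for the defining markers. Slc17a6, the vesicular glutamate transporter, was at 199.99 ± 41.3 CPM in glutamatergic and 18.4 ± 2.09 in inhibitory nuclei. Gad2, a GABA-synthesising enzyme, was at 48.4 ± 17.7 and 479 ± 41.2 CPM, and Slc6a5, the glycine transporter of glycinergic neurons, at 27.6 ± 13.2 and 214 ± 26.1. Cluster 10 was near the inhibitory levels for Slc17a6 and Gad2 but not for Slc6a5. Its Gad2 was at 437 ± 44.9 CPM, Slc6a5 at 1.55 ± 1.11 and Slc17a6 at 15.9 ± 3.44. The glutamatergic markers (7 of 9 listed) summed to 869 to 1129.6 CPM in it, against 1055 to 1224 in glutamatergic and 39.9 to 63.9 in inhibitory nuclei. This sum was not specific to neurons, at 739 to 827 CPM in endothelial cells and 429 to 895 in fibroblasts. The inhibitory markers (7 of 7) summed to 826 to 1124 CPM, against 187 to 353 and 1212 to 1520.3. Sox14, a marker of nucleo-olivary inhibitory neurons, was at 0 in the inhibitory class. The summed level of the 7 molecular layer interneuron markers was 3609 to 3967 CPM in inhibitory nuclei and 4597 to 5607 in the interneuron class, against 558 to 826 in glutamatergic nuclei. It was not specific to interneurons, at 3915 to 4502 CPM in oligodendrocyte precursors and 2297 to 2850 in mural cells.

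Most guidance genes had a class that stood apart from the other named classes. Clusters 5 and 10 and the fibroblasts were left out of this rule, and the named classes are the 9 others. Cluster 10 was above glutamatergic nuclei in every library for Efna5 and Epha7, and cluster 5 above oligodendrocytes for Ephb1. For each gene the highest class was said to stand apart where its lowest library exceeded the highest library of each of the other 8 named classes. This held for 33 of the 56 members and for 31.1% of all 11446 genes. Glutamatergic nuclei were the highest class for 15 members and stood apart for 11, namely Sema3a, Slit2, Slit3, Robo2, Efna5, Epha6, Epha7, Epha10, Ntng1, Ntng2 and Unc5d, where 2.17% of all genes stood apart in that class. Endothelial cells stood apart for 6 members (5.84% of all genes), Sema3c, Sema3g, Sema7a, Plxna2, Plxnd1 and Robo4. Astrocytes stood apart for Sema4b, Sema6d and Epha4 (4.43%), oligodendrocytes for Plxnb3, Efnb3 and Ephb1 (4.8%), and their precursors for Sema3d, Sema5b and Dcc (2.17%). Molecular layer interneurons stood apart for Epha8, Ntn1 and Unc5c (1.08%), microglia for Sema4d and Unc5cl (7.59%), mural cells for Sema5a (1.97%), and inhibitory nuclear or Golgi neurons for Unc5a (1.07%). Of all genes, 9.38% were highest in glutamatergic nuclei, 16.9% in endothelial cells, 20.5% in microglia, 10.4% in mural cells, 9.73% in molecular layer interneurons and, equally, in oligodendrocytes, 8.99% in astrocytes, 8.6% in inhibitory nuclei and 5.62% in precursors. With fibroblasts as a further class, which was added after the data were seen, 33 members had a class that stood apart, against 27.2% of all genes, and 51 of 56 kept their highest class. Robo2 and Epha7 were then highest in fibroblasts and no longer stood apart in glutamatergic nuclei.

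**Figure D1:**
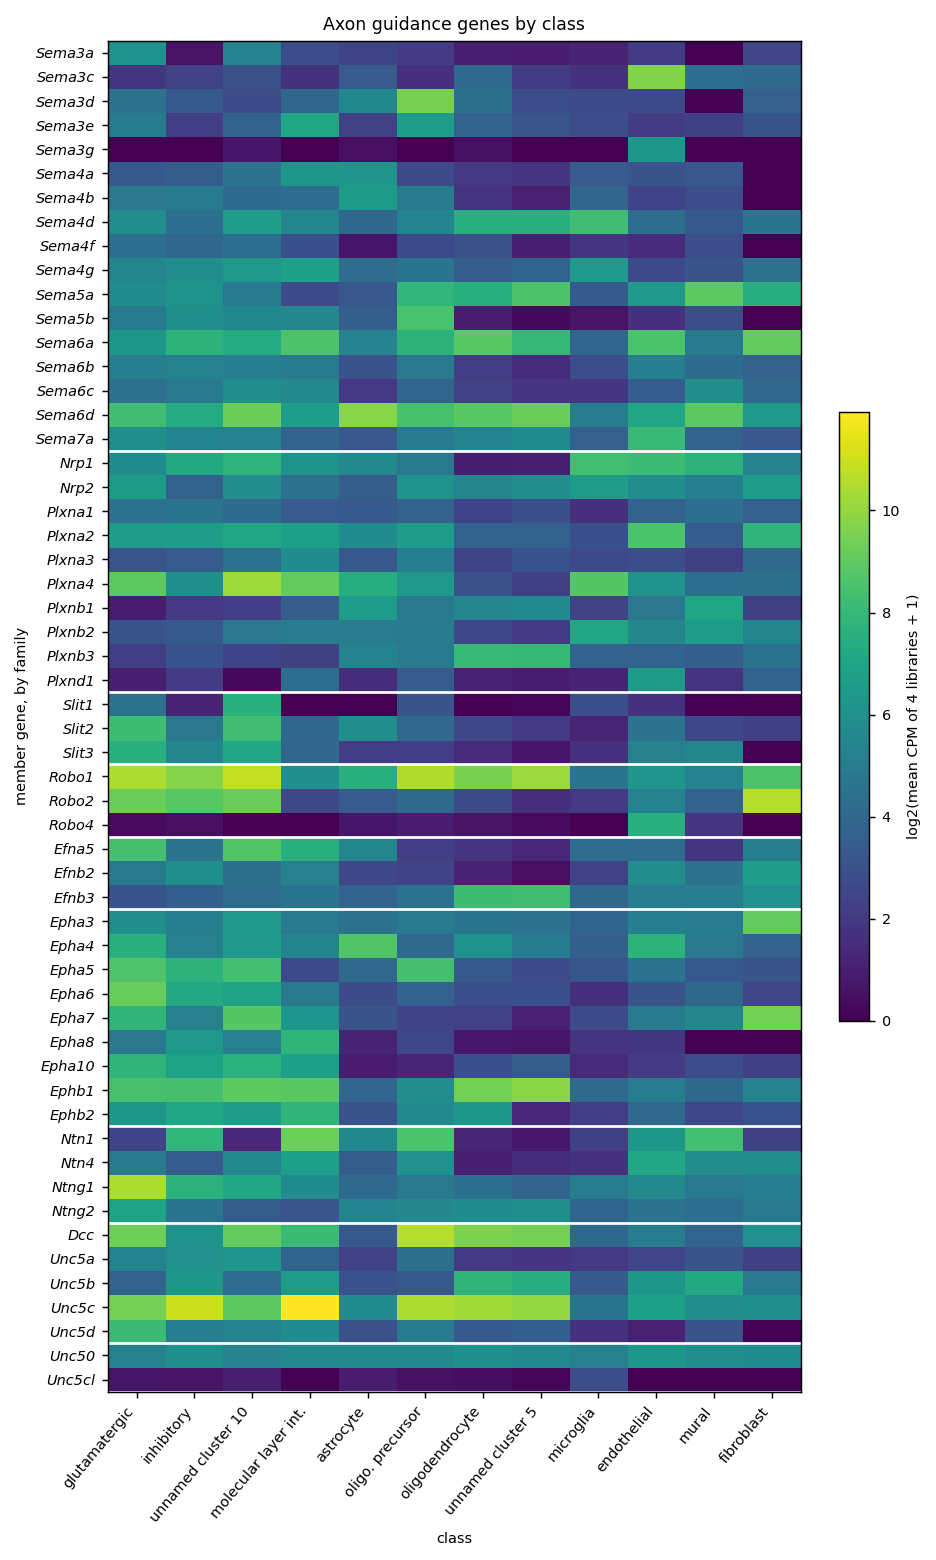
Mean level of each of the 56 members (rows, grouped by family, white lines between families) in 12 classes (columns), as log2 of the mean CPM over 4 libraries plus 1. Bright cells show where a gene was high, such as Ntng1 in glutamatergic nuclei, Sema3c in endothelial cells and Unc5c in molecular layer interneurons.

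The start-site sequences differed in their number of CpG dinucleotides within both a glutamatergic and an oligodendrocyte pair of members. They are the 250 bases before the RefSeq start (GRCm38.p6, the same build as mm10) for the 2 members with the largest ratio of the highest to the next class among those that stood apart in glutamatergic nuclei and have a single entry in the promoter table, and likewise for 2 members in oligodendrocytes. The table held 48 of the 56 members. Capitals mark ACAAAG or its reverse complement CTTTGT, the core letters bound by SOX factors, searched on both strands.
Sema3a (chr5:13396534-13396783, plus strand): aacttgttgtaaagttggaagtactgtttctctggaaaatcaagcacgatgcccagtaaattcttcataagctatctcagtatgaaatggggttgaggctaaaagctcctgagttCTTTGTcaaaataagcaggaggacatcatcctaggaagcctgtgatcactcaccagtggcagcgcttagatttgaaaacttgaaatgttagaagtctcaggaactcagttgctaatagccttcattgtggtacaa
Ntng1 (chr3:110143473-110143722, minus strand): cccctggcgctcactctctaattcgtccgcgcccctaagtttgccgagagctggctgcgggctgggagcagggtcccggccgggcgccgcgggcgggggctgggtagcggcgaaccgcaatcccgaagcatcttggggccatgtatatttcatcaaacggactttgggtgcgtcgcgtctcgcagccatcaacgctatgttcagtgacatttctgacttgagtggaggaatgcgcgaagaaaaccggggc
Plxnb3 (chrX:73756853-73757102, plus strand): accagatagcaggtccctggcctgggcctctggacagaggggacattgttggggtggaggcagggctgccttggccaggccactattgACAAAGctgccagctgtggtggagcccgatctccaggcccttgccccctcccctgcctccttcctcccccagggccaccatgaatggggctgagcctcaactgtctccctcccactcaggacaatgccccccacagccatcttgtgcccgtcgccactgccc
Ephb1 (chr9:102354694-102354943, minus strand): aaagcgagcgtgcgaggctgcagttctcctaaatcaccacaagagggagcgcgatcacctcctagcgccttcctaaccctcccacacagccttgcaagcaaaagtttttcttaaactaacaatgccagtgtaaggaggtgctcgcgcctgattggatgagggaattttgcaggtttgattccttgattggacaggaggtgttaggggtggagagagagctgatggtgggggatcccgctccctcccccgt
The windows held 2 CpG dinucleotides for Sema3a and 3 for Plxnb3, and 25 for Ntng1 and 10 for Ephb1, against a median of 6 over the 32851 promoters of the table. The Sema3a and Plxnb3 windows held 1 match each and the Ntng1 and Ephb1 windows 0, and 16.5% of all promoters held a match. GENCODE gene models start elsewhere for 3 of the 4. The Sema3a and Ntng1 windows lie inside the annotated genes (chr5:13125414-13602565, plus strand, and chr3:109780040-110144011, minus strand), and the Plxnb3 window runs past the annotated start (chrX:73757090-73772514, plus strand). Only the Ephb1 window lies wholly before the annotated gene (chr9:101922128-102354693, minus strand). A match is a description of letters, not a binding site.

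Class 3 semaphorins, the secreted ligands, were concentrated in glutamatergic nuclei (Sema3a), endothelial cells (Sema3c and Sema3g) or precursors (Sema3d). Sema3a, which repels axons through neuropilin 1 and plexin-As, was at 85.1, 56.5, 74.7 and 47.9 CPM in glutamatergic nuclei. In inhibitory nuclei it was at 0, 0, 2.10 and 0 CPM, so the classes did not overlap in any library. Cluster 10 was between them, at 31.1, 45.9, 44.0 and 25.3 CPM, and every other class mean was below 7 CPM. Sema3c, which acts on endothelial and neural cells through neuropilins, was at 740.0, 948, 715 and 822 CPM in endothelial cells. The next class, mural cells, averaged 19.4 ± 32.5 CPM. Sema3g, a ligand of neuropilin 2, was at 132, 44.0, 87.9 and 52.4 CPM in endothelial cells and averaged below 1 CPM in every other class and cluster. Sema3d was at 747, 689.9, 813 and 640.0 CPM in oligodendrocyte precursors and 20.6, 19.0, 22.9 and 18.6 in oligodendrocytes. It was 15.6-fold higher in precursors than in the next class, astrocytes (46.4 ± 4.26 CPM). Sema3e, the ligand of plexin D1, was highest in molecular layer interneurons (134 ± 31.2 CPM) and precursors (102 ± 22.5), whose libraries overlapped.

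Among the membrane-bound semaphorins, Sema4d, which binds plexin B1, was at 351, 315, 263 and 309 CPM in microglia. Oligodendrocytes followed at 176, 176, 189 and 176 CPM, below every microglial library. Sema4b was highest in astrocytes, at 101, 83.5, 89.8 and 81.0 CPM. Sema4a was at 78.0 ± 29.4 CPM in molecular layer interneurons and 73.6 ± 11.5 in astrocytes, a difference within the spread of the libraries. Sema4g was highest in molecular layer interneurons (114 ± 12.4 CPM) and Sema4f was below 20 CPM on average in each named class. Sema5a, which carries thrombospondin repeats, was at 609, 314, 652 and 384 CPM in mural cells, above 240.3, 214, 269 and 233 in precursors. Sema5b, a relative of Sema5a, was at 351, 361, 299.8 and 421 CPM in precursors and near 0 in oligodendrocytes (0.404, 0.862, 1.17 and 1.17). The transmembrane ligand Sema6d was at 922, 782, 985 and 922 CPM in astrocytes, and the next class, mural cells, averaged 482 ± 117. Sema6a, a ligand of plexins A2 and A4, had a broader pattern, with 476 ± 55.1 CPM in oligodendrocytes, 386 ± 98.0 in molecular layer interneurons, 374 ± 56.8 in endothelial cells and 553 ± 234 in fibroblasts. Sema6b and Sema6c, of the same class, stayed below 60 CPM on average in the named classes. Sema7a, a lipid-anchored semaphorin, was at 307, 282, 188 and 274 CPM in endothelial cells and 61.0 ± 14.2 in glutamatergic nuclei, the next class.

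Among the semaphorin receptors, 3 of the 10 neuropilins and plexins had a class that stood apart, namely Plxna2, Plxnb3 and Plxnd1. Nrp1, the co-receptor of Sema3a and of VEGF, was at 316 ± 59.0 CPM in microglia, 291 ± 85.4 in endothelial cells and 201 ± 61.7 in mural cells, with overlapping libraries, and at 1.02 ± 0.316 in oligodendrocytes. Nrp2 was at 94.999 ± 18.3 CPM in microglia and 89.1 ± 7.77 in glutamatergic nuclei, which also overlapped. Plxna2 was at 332, 456, 346 and 384 CPM in endothelial cells and 109 ± 12.1 in the next class, molecular layer interneurons. Plxna4 was at 1216, 1147, 1097 and 1202 CPM in cluster 10. Among the named classes it was at 558 ± 168 CPM in molecular layer interneurons, 479.5 ± 33.7 in glutamatergic nuclei and 439.5 ± 43.8 in microglia, and these did not separate. Plxna1 and Plxna3, the other plexin-As, averaged at most 23.4 and 54.1 CPM. Plxnb1 was highest in mural cells (131 ± 51.1 CPM) and astrocytes (96.8 ± 14.2), and Plxnb2 in microglia (136 ± 24.6) and mural cells (103 ± 13.0), in each case with overlap. Plxnb3 was at 312, 249, 236 and 267 CPM in oligodendrocytes and 6.68-fold lower in the next class, astrocytes. Plxnd1 was at 84.4, 58.3, 141 and 71.8 CPM in endothelial cells and at most 27.6 in any library of another named class.

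All 3 Slits were highest in glutamatergic nuclei among the named classes. Slit2 was at 252, 267, 367 and 308 CPM there and at 59.1, 53.1, 65.7 and 59.2 in astrocytes, the next class. Slit3 was at 177, 217, 159.8 and 197 CPM in glutamatergic and 44.8, 45.9, 38.8 and 47.3 in inhibitory nuclei. In cluster 10 the means were 311 CPM for Slit2 and 135 for Slit3. Slit1 was low in glutamatergic nuclei, at 29.5, 15.4, 17.9 and 23.3 CPM, and reached 218, 173, 134 and 223 CPM in cluster 10, where every library was above every glutamatergic one. Of the receptors, Robo1 was at 1550.4, 1299, 1491 and 1257 CPM in glutamatergic nuclei, 1498, 1166, 1741 and 1354 in precursors and 1804, 1780.1, 2171 and 1608 in cluster 10. The first 2 of these overlapped, and microglia were at 38.1, 10.8, 4.53 and 40.3 CPM. Robo2 was at 598, 566, 671 and 511 CPM in glutamatergic and 458, 455, 504 and 391.9 in inhibitory nuclei, while fibroblasts had 1378, 1823, 1734 and 1296. Robo4, the Robo of blood vessels, was at 171, 214, 176 and 178 CPM in endothelial cells and averaged at most 2.53 CPM in every other class.

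Among the 9 named classes, which leave out fibroblasts, ephrins and Eph receptors had their highest levels in neurons, astrocytes or oligodendrocytes. Efna5, a lipid-anchored ephrin, was at 362, 316, 386 and 301 CPM in glutamatergic nuclei, 419, 404, 435 and 417 in cluster 10 and 141, 127, 196 and 266 in molecular layer interneurons. Inhibitory nuclei had 31.0, 24.6, 23.1 and 11.8 CPM, below every library of those 3 groups. Efnb3, a transmembrane ephrin, was at 259.9, 294, 348 and 289 CPM in oligodendrocytes and 259, 315, 373 and 279.9 in cluster 5, with no other class mean above 64.0, that of fibroblasts. Efnb2, which marks arterial endothelium, was at 60.3 ± 15.5 CPM in inhibitory nuclei, 58.1 ± 8.34 in endothelial cells and 98.0 ± 46.8 in fibroblasts, without separation. Of the 9 Eph receptors, Epha3, Epha5, Epha6, Epha7 and Epha10 were highest in glutamatergic nuclei. Epha6 was at 620.4, 514, 594 and 551 CPM there and 189, 142, 112 and 146 in inhibitory nuclei. Epha7 was at 260.0, 191, 253 and 180.4 CPM, and cluster 10 (412, 390.0, 549 and 391.6) and fibroblasts (929, 655, 634 and 509) were higher in every library. Epha5 was at 405 ± 30.5 CPM in glutamatergic nuclei and 344 ± 30.7 in precursors. The spread of these overlapped. Epha3 averaged 57.7 ± 16.9 CPM in glutamatergic nuclei but 527 ± 127 in fibroblasts. Epha4, which binds ephrins of both classes, was at 384, 412, 483 and 364 CPM in astrocytes, above endothelial cells (182, 190.3, 287 and 174) and glutamatergic nuclei (193, 187, 178 and 194). Epha8 was at 235, 254, 176 and 234 CPM in molecular layer interneurons. Ephb1 was at 773, 616, 688 and 634 CPM in oligodendrocytes, above 549, 513, 357 and 443 in molecular layer interneurons, and higher still in cluster 5 (992, 936, 884 and 956). Ephb2 was highest in molecular layer interneurons (221 ± 54.9 CPM), which overlapped with inhibitory nuclei (143 ± 11.9), and was at 77.8 ± 22.0 in oligodendrocytes.

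Ntng1, encoding netrin-G1 (chr3:109780040-110144011, minus strand), was the netrin gene most restricted to glutamatergic nuclei, by a ratio of 7.002 to the next class. It was at 1368, 1501, 1438 and 1359 CPM there, 193, 216, 189 and 211 in inhibitory nuclei and 146, 139, 127 and 158 in cluster 10. Ntng2 was at 145, 132, 92.6 and 113 CPM in glutamatergic nuclei and 54.8 ± 3.135 in oligodendrocytes. Ntn1, the secreted netrin, had the reverse pattern among neurons. It was at 628, 607, 591 and 726 CPM in molecular layer interneurons, 245, 273, 171 and 234 in inhibitory nuclei and 4.73, 5.53, 4.98 and 1.94 in glutamatergic nuclei. Precursors (396, 388, 349 and 349) and mural cells (406, 354, 288 and 276) also had high levels, and oligodendrocytes did not (1.61, 1.72, 0.587 and 1.84). Ntn4, a netrin of basement membranes, was highest in endothelial cells (136 ± 68.4 CPM) and overlapped with molecular layer interneurons (106 ± 15.3). The receptor Dcc was at 1479, 1333, 1837 and 1496 CPM in precursors, 812, 634, 934 and 673 in oligodendrocytes and 655, 483, 773 and 602 in glutamatergic nuclei. Inhibitory nuclei had 89.5, 62.2, 74.4 and 54.7 CPM and astrocytes 17.2, 4.56, 8.57 and 4.17. Unc5c was at 3859, 3749, 4261 and 3797 CPM in molecular layer interneurons and 1805, 1908, 2428 and 2014 in inhibitory nuclei, with 1421 ± 191 in precursors and 689.8 ± 178 in glutamatergic nuclei. Unc5d was at 265, 217, 356 and 300.1 CPM in glutamatergic nuclei and 52.4 ± 18.2 in the next class. Unc5b, also a receptor of vessels, was at 222 ± 38.4 CPM in oligodendrocytes and 147 ± 37.7 in mural cells, whose libraries overlapped, and Unc5a at 64.1 ± 9.82 in inhibitory nuclei. Of the symbol matches that are not netrin receptors, Unc50 averaged 35.2 CPM in microglia to 78.3 in endothelial cells and Unc5cl averaged 5.97 ± 1.33 in microglia.

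Glutamatergic and inhibitory nuclei differed in most of the members that were abundant enough to test. Secreted and lipid-anchored ligands (Sema3a, Slit1, Slit2, Efna5, Ntng1) and the receptors Dcc, Unc5d, Plxna4, Nrp2 and Epha7 were higher in glutamatergic nuclei. Ntn1 and the receptors Unc5b, Unc5c, Epha8, Nrp1 and Ephb2 were higher in inhibitory nuclei. With edgeR's quasi-likelihood test and Benjamini-Hochberg adjustment, 37 of the 45 members that passed the filter on low counts were called, 25 higher and 12 lower in glutamatergic nuclei. Over all 9773 genes tested, 31.2% were called, 15.7% higher and 15.5% lower. The median absolute log2 difference was 1.53 over the members tested and 0.27 over all genes tested. The 8 that missed the threshold were Ephb1, Plxna1, Plxna2, Sema4b, Sema4f, Sema5a, Sema6b and Sema6c. The 11 members not tested were Efnb3, Plxna3, Plxnb1, Plxnb2, Plxnb3, Plxnd1, Robo4, Sema3c, Sema3g, Sema4a and Unc5cl.

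Among the ligands, Sema3a had a log2 difference of 6.21 ± 0.41 (SE; adjusted p = 2.51e-18). Only 2 counts lay in inhibitory nuclei, and the ratio of pooled levels was 81.4 (95% exact counting interval 22.4 to 675, 388 against 2 counts). Slit1 had 4.53 ± 0.54 (adjusted p = 1.12e-09), also on few counts, with a pooled ratio of 25.6 (95% exact counting interval 6.94 to 214, 122 against 2 counts). Efna5 differed by 4.06 ± 0.15 and Slit2 by 3.83 ± 0.16, with glutamatergic nuclei higher in all 4 libraries. Sema3e differed by 3.06 ± 0.34, from 23.6, 17.2, 55.8 and 17.5 CPM against 3.44, 1.64, 7.34 and 1.48, with vGluT2-Cre replicate 1 the highest library in both classes. For the netrin-Gs the differences were 2.88 ± 0.09 for Ntng1 and 2.55 ± 0.17 for Ntng2. Ntn1 was lower by far in glutamatergic nuclei, at -5.60 ± 0.18 (adjusted p = 2.03e-30), with no overlap of libraries. The ligands Sema6a, Efnb2 and Sema5b were lower as well, at -1.37 ± 0.11, -1.18 ± 0.18 and -0.97 ± 0.18.

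Among the receptors, Unc5d (3.306 ± 0.15), Dcc (3.28 ± 0.11), Plxna4 (3.01 ± 0.12), Nrp2 (2.98 ± 0.21) and Epha7 (2.68 ± 0.14) were higher in glutamatergic nuclei in every library. The adjusted p of these lay between 1.18e-29 for Dcc and 3.44e-17 for Nrp2. Nrp1, whose levels were 67.4, 47.3, 51.3 and 45.3 CPM in glutamatergic and 148, 151, 166 and 146 in inhibitory nuclei, went the other way from Nrp2, with -1.53 ± 0.12 (adjusted p = 4.04e-15). The Unc5 receptors were likewise divided. Unc5b (-2.64 ± 0.20) and Unc5c (-1.53 ± 0.08) were higher in inhibitory nuclei and Unc5d in glutamatergic nuclei. Epha8 differed by -1.67 ± 0.17 and Ephb2 by -0.80 ± 0.12, while Epha3, Epha4, Epha5, Epha6 and Epha10 were higher in glutamatergic nuclei, by 0.83 (Epha3, higher in 3 of 4 libraries) to 2.42 (Epha4). Unc5a (-0.57 ± 0.17), Sema4g (-0.42 ± 0.16) and Unc50 (-0.57 ± 0.18) passed the threshold by a small margin. Unc5a missed it without vGluT2-Cre replicate 1 (-0.40). Sema4g missed it without vGluT2-Cre replicate 1 (-0.29) or 2 (-0.47) or Ucn3-Cre replicate 2 (-0.40). Unc50 missed it without Ucn3-Cre replicate 1 (-0.41) or 2 (-0.54) or vGluT2-Cre replicate 2 (-0.51).

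**Figure D2:**
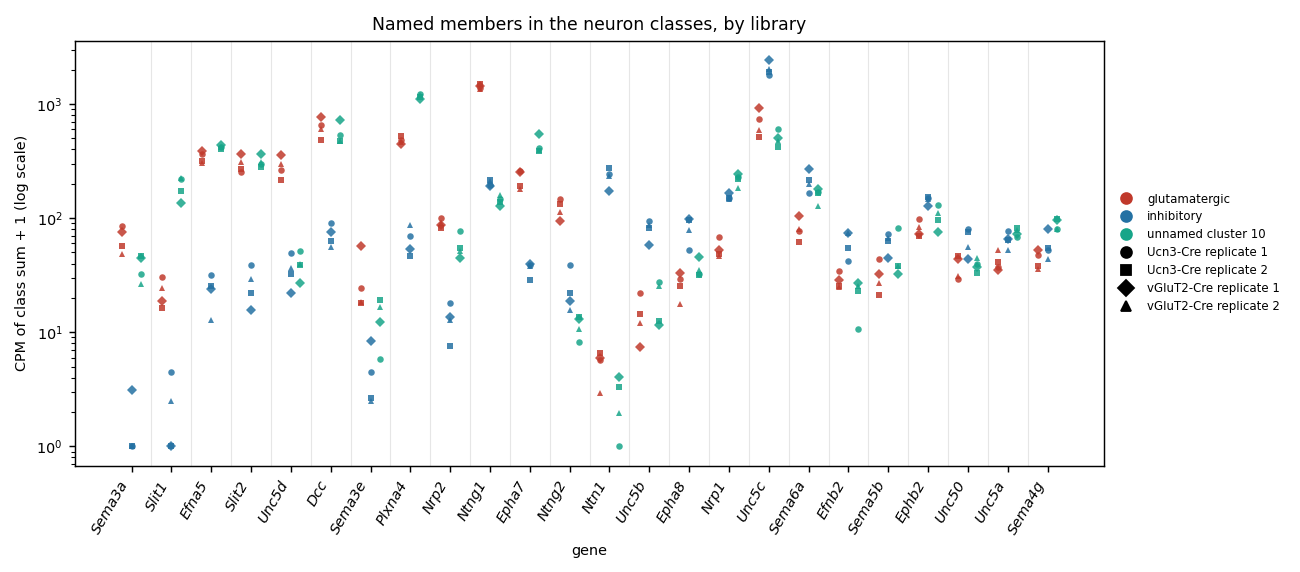
CPM plus 1 (log axis) of the 24 named members in glutamatergic nuclei (red), inhibitory nuclei (blue) and cluster 10 (green), with 1 symbol shape per library. Within each library the glutamatergic point lies above the inhibitory one from Sema3a to Ntng2 and below it from Ntn1 to Sema4g, while cluster 10 lies above both for Slit1, Plxna4 and Epha7 and near 0 for Ntn1.

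Cluster 10 had Slc17a6 and Gad2 near the inhibitory levels and a high sum of the listed glutamatergic markers. For some members it lay near glutamatergic nuclei and for others near inhibitory nuclei. It shared high Efna5, Slit2 and Dcc with glutamatergic nuclei (Dcc at 534, 476, 719 and 476 CPM) and low Ntn1 (0, 2.29, 3.03 and 0.972). It shared low Ntng1, Ntng2 and Unc5d with inhibitory nuclei (Unc5d at 50.2, 37.9, 25.8 and 38.9 CPM). When its nuclei were counted as inhibitory, an alternative added after the data were seen, 18 members were higher and 22 lower in glutamatergic nuclei, with 1847 genes higher and 1724 lower of all 10988 tested (32.5%). Slit1 (-2.31), Plxna4 (-0.49) and Epha7 (-0.25) then changed direction, Sema3a fell to 1.59, Slit2 to 0.72, Efna5 to 0.48 and Dcc to 0.90, and Ntng1 (3.16), Unc5d (3.18) and Ntn1 (-4.33) kept their direction. This alternative puts nuclei with a high sum of glutamatergic markers, but with Slc17a6 and Gad2 near the inhibitory levels, on the inhibitory side. The part of those markers in the changed directions was not tested. Markers of other cells were present in the compared classes, with oligodendrocyte markers at 304 to 473 CPM in glutamatergic and 283 to 813 in inhibitory nuclei (8 of 8 listed), against 19904 to 22067 in oligodendrocytes. Their part in the differences was not tested. Without the sub-clusters led by genes of another class, 36 of 43 members tested were called, 25 higher and 11 lower, with 32% of all genes, and Unc5a was not (-0.41). Classes were drawn from the same counts, so p-values between them are too small, although the members took no part in the clustering.

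Genes that act with these ligands and receptors, from a list of 51 partners and effectors, were called in 22 of 44 tested, 16 higher and 6 lower in glutamatergic nuclei. The share over all genes tested was 31.2%, with 15.7% higher and 15.5% lower. Srgap1, a Slit-Robo GTPase-activating protein, was higher by 3.71 ± 0.18, Kalrn, a guanine nucleotide exchange factor, by 3.24 ± 0.12, and Vav3, an exchange factor downstream of Eph receptors, by 2.54 ± 0.12. Chn1, a Rac-inactivating protein that acts below Epha4, was higher by 1.36 ± 0.14. Lrrc4c encodes NGL-1, the partner of netrin-G1, and was higher in inhibitory nuclei, at 5650.4 ± 807 CPM against 1979.7 ± 296 (-1.45 ± 0.07). Lrrc4, encoding NGL-2, the partner of netrin-G2, also was, by -0.78 ± 0.11. Of the collapsin response mediators, which relay Sema3a signals, Dpysl3 (1.08 ± 0.14) and Dpysl5 (1.22 ± 0.21) were higher and Dpysl4 (-1.12 ± 0.14) lower in glutamatergic nuclei. Dock1 (-1.72 ± 0.18), an exchange factor used by Dcc, and Flrt2 (-1.37 ± 0.18), a ligand of Unc5 receptors, were lower. With cluster 10 as inhibitory, Srgap1 (-0.98) and Dpysl5 (-0.31) changed direction.

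Guidance genes also differed among the glutamatergic neurons themselves. The 546 nuclei formed 11 sub-clusters, named here by leading genes, and 33 of the 37 members tested differed among them, with 28.2% of all 5162 genes tested (edgeR F test with the library as block, sums of at least 5 nuclei). The median range of the mean log2 CPM over sub-clusters was 2.34 for the members tested and 1.23 for all genes tested. These means were not adjusted for libraries that a sub-cluster lacked. Sub-clusters 1 (Zfhx3, Zfhx4 and Galntl6) and 7 (Pax2 and Slc6a5) had inhibitory markers and sub-cluster 4 was led by oligodendrocyte genes such as Mog and Mag. Sub-clusters 0, 3 and 6 scored highest for granule cells (0.329, 0.297 and 0.506) and sub-cluster 2 for Purkinje cells (0.449). Sub-cluster 8 scored highest for microglia (1.012) and next for glutamatergic nuclear neurons (0.668). Median counts per nucleus ran from 5915 in sub-cluster 6 to 15292 in sub-cluster 4. The part of depth and of other cells' markers in these differences was not tested. Without sub-clusters 1, 4 and 7, in an alternative added after the data were seen, 24 of 33 members tested differed, with 23% of all genes. Sub-clusters 6 and 8 were kept in it. The ranges of Ntng1 (2.23), Ntng2 (1.62) and Unc5c (2.14) were then narrower by over 1.5 times.

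Ntng1 had the widest range, 5.20 on the log2 scale (adjusted p = 1.19e-20). It was at 2688, 2598, 2647 and 2987 CPM in sub-cluster 9 (Cpne4 and Camk2a), 2106, 2178, 2423 and 2048 in sub-cluster 3 (Crhr1, Maf and Pdgfc) and 2050.4, 1911, 1961 and 1834 in sub-cluster 2 (Zfp804b and Cdh6). In sub-cluster 0 (Sox6 and Nts) it was at 633, 446, 491 and 687 CPM and in sub-cluster 5 (Lmx1a and Hpse2) at 618, 529, 656 and 548, below every library of those 3. Sub-cluster 7 had 22.0, 81.5, 200.1 and 24.2 CPM. Sema3a (range 4.23, adjusted p = 2.15e-15) was at 266, 230.2, 317 and 159 CPM in sub-cluster 2. Sub-cluster 8 (Prox1 and Entpd1), which had no sum for Ucn3-Cre replicate 1, was next at 65.5, 184 and 139, and sub-clusters 3 (34.1, 0, 11.5 and 14.7) and 9 (0, 18.6, 10.1 and 12.8) were lowest among those with 4 sums and no inhibitory markers. Slit2 (range 3.73, adjusted p = 3.01e-11) was higher in sub-cluster 3 than in sub-cluster 2, at 413 ± 70.3 CPM in sub-cluster 3 and 207 ± 91.9 in sub-cluster 2. Its lowest mean apart from sub-cluster 7 was 65.8 ± 36.3 CPM, in sub-cluster 6 (Kynu and Igf1).

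Among the netrin receptors, Dcc (range 3.306, adjusted p = 1.04e-14) was highest in sub-cluster 6, at 1514, 1374, 2033 and 2011 CPM. In sub-cluster 3 Dcc was at 358, 77.8, 127 and 135 CPM, and no library of these 2 overlapped. Sub-cluster 7 also was high, at 1011, 1548, 1728 and 2182 CPM. Unc5d (range 4.03, adjusted p = 9.19e-12) was at 754, 719, 417 and 431 CPM in sub-cluster 5 and 649, 321, 837 and 509 in sub-cluster 6, and highest in sub-cluster 1 (996 ± 326), but 91.0, 106, 196 and 92.8 in sub-cluster 2 and 51.1, 145, 99.3 and 176 in sub-cluster 3. Unc5c (range 3.47, adjusted p = 4.03e-17) was highest in sub-cluster 7, at 3055, 2232, 3549 and 2376 CPM, and among the others in sub-cluster 5, at 1192, 1587, 1128 and 783. Sub-cluster 3 was the lowest, at 204, 205, 360.3 and 213 CPM, as it was for Dcc.

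Of the Eph system, Epha6 (range 4.26, adjusted p = 2.57e-13) was at 1204, 815, 796 and 804 CPM in sub-cluster 2 and 144, 45.8, 35.9 and 0 in sub-cluster 6. Epha4 (range 3.29, adjusted p = 6.18e-11) was highest in sub-cluster 9, at 462, 354, 387 and 308 CPM, and low in sub-clusters 5 (90.5, 81.4, 68.4 and 58.8) and 7 (22.0, 81.5, 34.2 and 0). Efna5 (range 3.12, adjusted p = 9.89e-08) was high in sub-clusters 6 (361, 573, 921 and 921) and 8 (711, 1102 and 746) and low in sub-cluster 2 (196, 117, 230.4 and 137). Sub-cluster 10 (Pde1a and Hs3st4), with sums only for Ucn3-Cre replicate 2 and vGluT2-Cre replicate 1, had 636 and 1244 CPM. Ntng2 (range 3.29, adjusted p = 6.65e-07) followed Ntng1 in being highest in sub-cluster 9 (209.9 ± 41.1 CPM) and sub-cluster 3 (168 ± 46.6). Nrp1 (range 3.61, adjusted p = 0.000223) was highest in sub-cluster 8, at 74.8, 245 and 208 CPM, and its call was lost without vGluT2-Cre replicate 1 (range 2.40). Sub-cluster 8 scored highest for microglia, where Nrp1 averaged 316 CPM, and the part of microglial markers was not tested. Sema5a (range 3.04, adjusted p = 1.12e-06) was below 100 CPM on average outside sub-clusters 7 and 10. The members that did not differ past the threshold were Plxna4 (adjusted p = 0.0551), Efnb2, Ntn4 and Unc50.

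**Figure D3:**
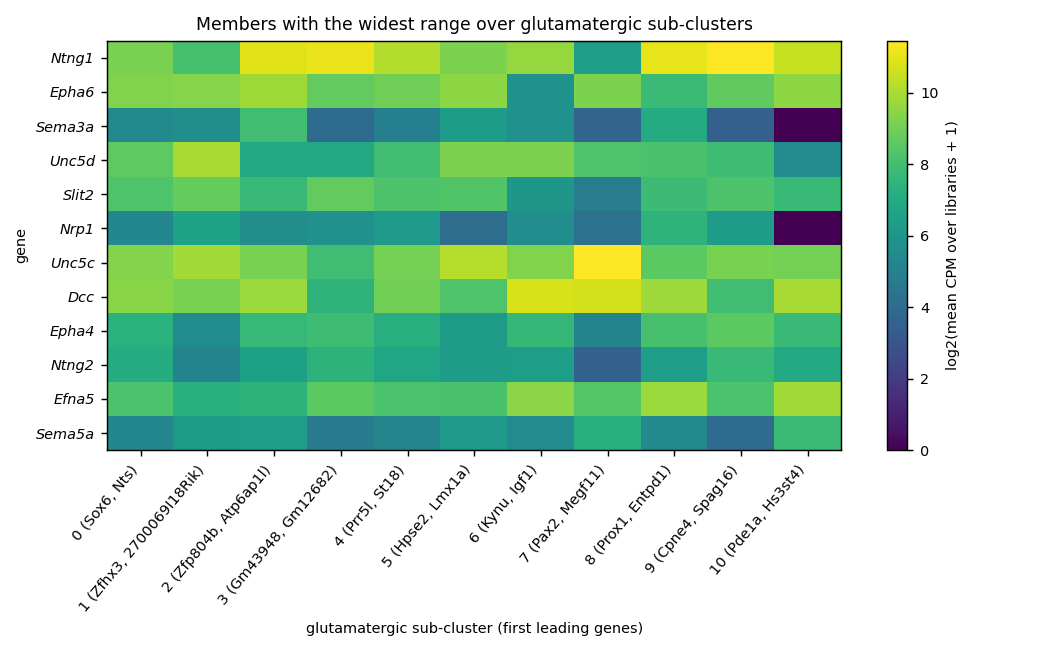
Mean level (log2 of CPM plus 1) of the 12 members with the widest range over glutamatergic sub-clusters, by sub-cluster and its leading genes. Ntng1 is brightest in sub-clusters 2, 3, 8 and 9, Dcc in 6 and 7, and Sema3a in 2 and 8.

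Inhibitory nuclei fell into 5 sub-clusters, and 13 of 21 members tested differed among those with at least 2 sums, with 15.4% of all 3279 genes tested. Sub-cluster 1, the largest with 236 nuclei (Dab1 and Nppc, with mitochondrial transcripts among its leading genes), differed from sub-clusters 0 (Otof and Nrg1) and 4 (Sv2c and Kcnc2). It scored highest for microglia (0.568) and next for oligodendrocyte precursors (0.413), and Slc1a2, a listed astrocyte marker, was a leading gene. Sub-clusters 0 and 4 scored highest for inhibitory neurons (0.798 and 0.785). The median of 4455 counts per nucleus in sub-cluster 1 was below the 5110 and 6834 of sub-clusters 0 and 4. The part of depth and of other cells' markers was not tested. Ntn1 (range 1.44, adjusted p = 3.56e-08) was at 493, 372, 225 and 297 CPM in sub-cluster 1, 204, 201, 179 and 138 in sub-cluster 0 and 90.6, 162, 114 and 185 in sub-cluster 4. Ephb1 (range 1.44, adjusted p = 8.89e-12) was at 614, 424, 436 and 411 CPM in sub-cluster 1 and 147, 135, 163 and 202 in sub-cluster 4, and Nrp1 (range 1.28, adjusted p = 3.38e-08) at 242, 226, 238 and 196 and 90.6, 59.4, 101 and 87.3. Sema6a (range 1.23, adjusted p = 1.29e-06) and Sema5b (range 2.15, adjusted p = 0.000637) also were highest in sub-cluster 1, at 300.1 ± 28.9 and 94.0 ± 27.1 CPM. Higher in sub-cluster 4 than in sub-cluster 1 were Epha6 (range 2.60, adjusted p = 9.5e-19), Ntng1 (range 1.82, adjusted p = 1.66e-15) and Robo1 (range 1.04, adjusted p = 4.02e-12). Epha6 was at 362, 292, 194 and 256 CPM in sub-cluster 4 and 65.1, 41.0, 58.5 and 53.9 in sub-cluster 1, with no overlap, while sub-cluster 0 (163, 252, 143 and 309.7) overlapped with sub-cluster 4, as it did for Robo1. Ntng1 was at 368 ± 45.3 CPM in sub-cluster 4 and 99.7 ± 28.0 in sub-cluster 1, also without overlap. Sub-cluster 3 was led by granule cell genes and sub-cluster 2 by oligodendrocyte genes, the latter with only 1 sum and outside the test. Without sub-clusters 2 and 3, 11 of 20 members tested differed (10.8% of all genes). Sema5b lost its call without Ucn3-Cre replicate 2 (range 1.79), and Slit3 without vGluT2-Cre replicate 1 (1.44) or 2 (1.27). Sema5a (range 1.18, adjusted p = 0.0488) lost it without Ucn3-Cre replicate 1 (1.16) or 2 (1.26) or vGluT2-Cre replicate 2 (1.35).

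Oligodendrocyte precursors and oligodendrocytes, stages of a lineage, had different sets of guidance genes. The secreted cues Ntn1, Ntn4, Sema3d and Sema3e, and Sema5b, Plxna2, Plxna3 and Plxna4, were higher in precursors. Efnb3, Ephb1, Plxnb3, Unc5b, Sema4d, Epha4, Sema6a and the secreted Sema3c were higher in oligodendrocytes. Of 41 members tested, 34 were called, 22 higher and 12 lower in precursors, with 50.5% of all 10559 genes called (26.1% higher and 24.4% lower). The median absolute log2 difference was 2.10 over the members tested and 0.52 over all genes tested.

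Sema5b had the largest difference, 8.39 ± 0.17 (adjusted p = 9.62e-18). Ntn1 followed with 7.89 ± 0.17 and Ntn4 with 6.04 ± 0.35, from 70.3, 56.7, 63.2 and 67.8 CPM in precursors against 2.42, 0.216, 0.782 and 0.837. Sema3d differed by 5.08 ± 0.11 and Sema3e by 3.01 ± 0.23, in each case with every precursor library above every oligodendrocyte library. Among the receptors Epha5 was at 314, 382, 325 and 356 CPM in precursors and 6.05, 10.3, 7.63 and 14.1 in oligodendrocytes (5.06 ± 0.14). Nrp1 (4.46 ± 0.47), Plxna4 (3.48 ± 0.28), Plxna2 (2.83 ± 0.18) and Plxna3 (2.80 ± 0.31) were higher in precursors too. Dcc (0.95 ± 0.09) and Robo1 (0.92 ± 0.11) were higher by less, with oligodendrocytes at 763 and 736 CPM. Unc5c, at 0.12 ± 0.09, did not pass (adjusted p = 0.302).

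In the other direction Unc5b was at 204, 271, 182 and 232 CPM in oligodendrocytes and 7.40, 15.1, 5.42 and 7.71 in precursors (-4.70 ± 0.20, adjusted p = 1.41e-13). Efnb3 differed by -3.94 ± 0.17, Ephb1 by -3.59 ± 0.13 and Plxnb3 by -3.14 ± 0.17, and no precursor library reached an oligodendrocyte library. Sema4d (-2.21 ± 0.15), Epha4 (-2.10 ± 0.22) and Sema6a (-1.25 ± 0.10) were also lower in precursors. Sema3c was at 3.70, 1.89, 0 and 3.08 CPM in precursors against 10.9, 22.4, 13.9 and 15.6 in oligodendrocytes, a log2 difference of -3.05 ± 0.51, or -1.82 with called doublets kept. Cluster 5, which carried oligodendrocyte markers at 21280.0 to 23371 CPM, was close to oligodendrocytes for Efnb3, Plxnb3 and Sema4d (193 ± 4.19 CPM). Its libraries lay apart from those of oligodendrocytes for Sema5a, at 252, 358, 539 and 409 CPM against 132, 172, 241 and 186 in oligodendrocytes, Sema6a, at 222, 226, 295 and 245 against 417, 475, 549.8 and 463, and Ephb2, at 0.834, 0.582, 2.003 and 2.56 against 52.5, 106, 72.8 and 80.2. These differences were not tested, and neither was the part of oligodendrocyte markers in precursors, which summed to 937 to 1274 CPM there and to 19904 to 22067 in oligodendrocytes. With cluster 5 counted as oligodendrocytes, Ephb2 lost its call (-0.27). Plxnb1 (-0.66 ± 0.21) lost its call without Ucn3-Cre replicate 1 (-0.49). Of the partner list, 36 of 41 were called, 25 higher and 11 lower in precursors, where 50.5% of all genes were called (26.1% higher and 24.4% lower). Nrcam, an adhesion molecule of semaphorin receptors, was higher by 7.22 ± 0.16, Trio, the exchange factor below Dcc, by 5.94 ± 0.18, and Dscam, a netrin-binding receptor, by 4.86 ± 0.12. Cntn2 (-4.59 ± 0.15), an adhesion molecule near nodes of Ranvier, and Rgma (-1.15 ± 0.14), a ligand of neogenin, were lower.

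**Figure D4:**
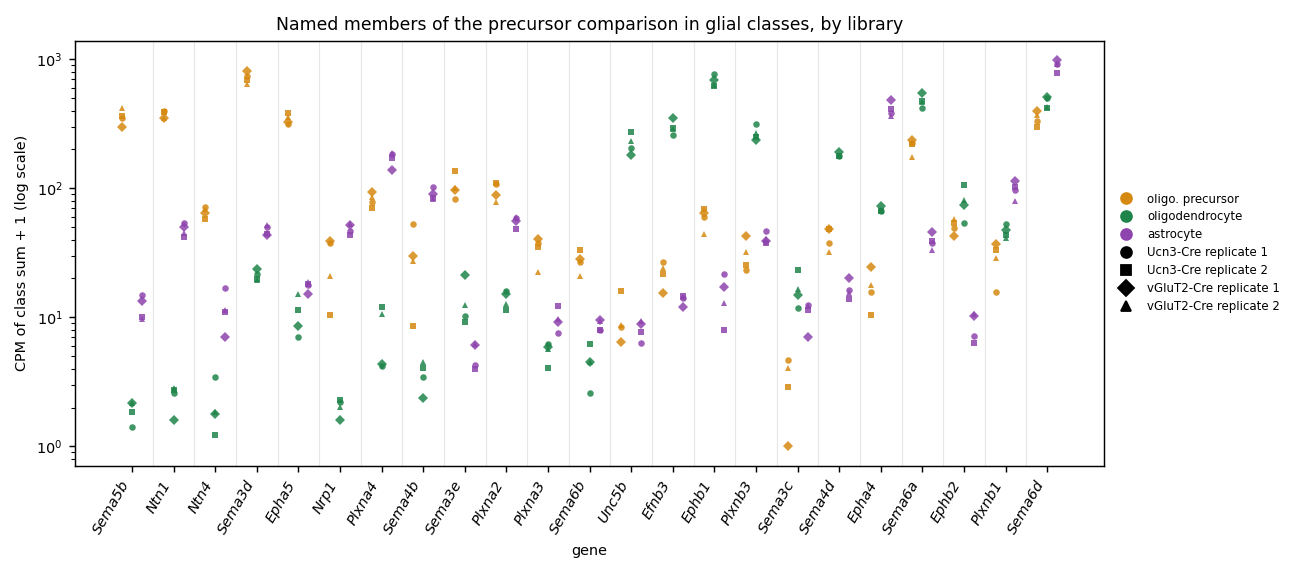
CPM plus 1 (log axis) of the named members of the precursor comparison in oligodendrocyte precursors (orange), oligodendrocytes (green) and astrocytes (purple), with 1 symbol shape per library. Precursor points lie above oligodendrocyte points from Sema5b on the left, and the order turns for Unc5b, Efnb3, Ephb1 and Plxnb3.

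Astrocytes and oligodendrocytes, the most frequent glia, differed in 42 of 50 members tested, 23 higher and 19 lower in astrocytes, where 67.8% of all 11928 genes were called (34% higher and 33.8% lower). Most genes differed between these classes. Astrocytes were higher for Nrp1 (5.51 ± 0.20), Sema4b (4.98 ± 0.17), Ntn1 (4.92 ± 0.21), Sema4a (4.59 ± 0.16), Plxna4 (4.50 ± 0.18), Efna5 (4.27 ± 0.25) and Slit2 (3.53 ± 0.15). They were lower for Dcc (-6.65 ± 0.20), Ephb1 (-5.71 ± 0.15), Unc5b (-4.99 ± 0.12), Unc5c (-4.62 ± 0.14), Efnb3 (-4.57 ± 0.11), Sema5a (-4.49 ± 0.10) and Sema6a (-3.70 ± 0.09). These 14 were taken as the largest differences in each direction, and their adjusted p was at most 7.03e-09. These netrin receptors were low in astrocytes, with Dcc at 8.63 ± 6.07 CPM, Unc5b at 7.08 ± 1.35 and Unc5c at 54.0 ± 17.2. Epha4 (2.56 ± 0.08) and Sema6d (0.91 ± 0.08), for which astrocytes also stood apart, were higher by less than Sema4b. Of the partner list 41 of 45 were called, 27 higher and 14 lower in astrocytes. Mical2, an oxidase that disassembles actin below plexins, was higher by 11.51 ± 0.20 and Cntn2 lower, at -5.09 ± 0.12.

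In the vessel wall, endothelial and mural cells divided the semaphorins. Sema3c, Sema6a, Sema7a, Plxna2, Robo4 and Epha4 were higher in endothelial cells, and Sema5a, Sema6d, Ntn1, Plxnb1, Plxnb2 and Unc5b in mural cells. Only 15 members passed the filter on low counts, and mural cells had 22 to 65 nuclei per library. Of the 15, 13 were called, 7 higher and 6 lower in endothelial cells. Of all 3357 genes tested 43.1% were called, 25.2% higher and 17.9% lower. Without TMM scaling the median of all genes moved from 0.05 to 0.20 on the log2 scale, and the same numbers of members were called in each direction.

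Sema3c had a log2 difference of 6.15 ± 0.47 (adjusted p = 1.49e-08), on 3 counts in mural cells, and the ratio of pooled levels was 81.7 (95% exact counting interval 27.9 to 396, 1961 against 3 counts). Robo4 had 5.53 ± 0.62, with a pooled ratio of 55.0 (95% exact counting interval 9.81 to 2176, 440 against 1 counts), and 8.67 on the log2 scale without Ucn3-Cre replicate 2, which held the mural count. Plxna2 was at 0, 30.4, 0 and 9.85 CPM in mural cells (4.71 ± 0.45), Sema7a at 0, 30.4, 0 and 19.7 (3.81 ± 0.46) and Sema6a at 33.8, 10.1, 45.5 and 29.6 (3.67 ± 0.38), each below every endothelial library. Epha4 differed by 2.46 ± 0.41. Sema3g and Plxnd1 did not pass the filter on low counts. No count of Sema3g lay in mural cells, so it was at least 6.83-fold higher in endothelial cells, against a floor of 3 counts over the mural class. For Plxnd1 the pooled ratio was 22.0 (95% exact counting interval 3.90 to 873, 176 against 1 counts). These intervals cover counting error only.

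Higher in mural cells were Plxnb1 (-2.66 ± 0.40), Sema5a (-2.58 ± 0.23), Ntn1 (-2.21 ± 0.23), Sema6d (-2.06 ± 0.24), Plxnb2 (-1.40 ± 0.34) and Unc5b (-0.91 ± 0.29). Endothelial Ntn1 was at 86.3, 79.0, 87.9 and 62.7 CPM, below each mural library. Unc5b lost its call without Ucn3-Cre replicate 1 (-0.78) or vGluT2-Cre replicate 1 (-0.78) or 2 (-1.06). Unc5c (1.14 ± 0.43) passed, with endothelial cells higher in 3 of 4 libraries. Nrp1 (0.50 ± 0.28, adjusted p = 0.167) and Ntn4 (0.69 ± 0.51, adjusted p = 0.299) did not pass. Mural markers summed to 4266 to 6821 CPM in the endothelial class, 8 of 8 listed, against 17419 to 21347 in mural cells. The 3 listed haemoglobin genes summed to 2807 to 6389.6 CPM in the endothelial class. At a finer clustering 366 of these nuclei, led by Acta2, Myl9, Rgs5 and Hba-a1, left the endothelial class. Then 7 members were called higher and 4 lower among 11 tested (54.5% of all genes), and Sema5a (-4.07) and Sema6d (-3.62) were lower still in endothelial cells.

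Of the partner list 11 of 21 were called, 4 higher and 7 lower in endothelial cells. Of all genes tested 43.1% were called, 25.2% higher and 17.9% lower. Flrt2 (4.12 ± 0.52), Cxcl12 (3.29 ± 0.27), a chemokine that guides cells and axons, Ablim1 (2.27 ± 0.23) and Srgap2 (1.61 ± 0.21) were higher. Chn1 (-2.99 ± 0.27), Rgma (-2.55 ± 0.34), Nck2 (-1.92 ± 0.34), an adaptor of Eph and Robo receptors, and Farp1 (-1.79 ± 0.20), a plexin-A-binding exchange factor, were lower. At the finer clustering Chn1 was at -4.74, Rgma at -4.58 and Farp1 at -2.75.

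**Figure D5:**
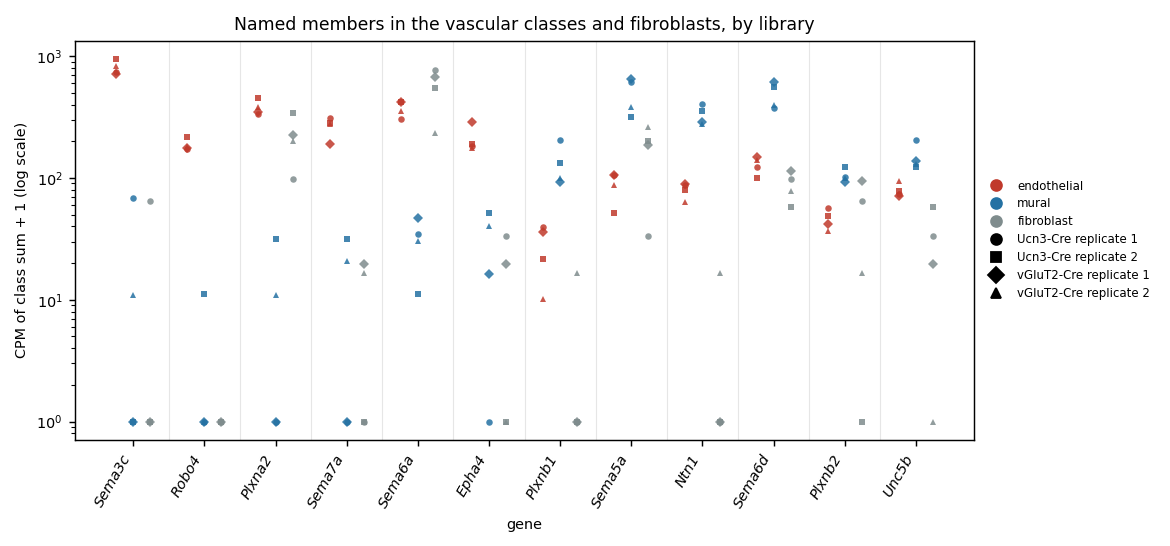
CPM plus 1 (log axis) of the 12 named members in endothelial cells (red), mural cells (blue) and fibroblasts (grey), with 1 symbol shape per library; points at 1 are libraries with no count. Endothelial points lie above mural points from Sema3c to Epha4 and below them from Plxnb1 to Unc5b.

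Between the mouse lines no member was called. Ucn3-Cre and vGluT2-Cre libraries, 2 against 2, were compared over all nuclei (56 members tested) and within glutamatergic (48), inhibitory (39), oligodendrocyte (43), precursor (36) and astrocyte nuclei (48). In edgeR the count of called members was 0 in each of these 6 comparisons, and it was 0 in DESeq2 too. Among all genes, edgeR called 0 of 13793 over all nuclei and 0.0111% of genes in inhibitory and 0.0478% in precursor nuclei, with 0 in the other classes. At an unadjusted p under 0.05, 1 member appeared over all nuclei, Sema5a, beside 479 of all genes. Within classes it was 1 each in glutamatergic (Plxna1), inhibitory (Unc50), oligodendrocyte (Efnb2) and precursor nuclei (Slit2), and 0 in astrocytes. The adjusted p of each member was at least 0.999. Age differed between the lines and the iodixanol gradient was used in 1 Ucn3-Cre library, so line and age cannot be told apart, and preparation differed within a line. Nucleus names of both replicate 2 libraries carry the same number, and those of the replicate 1 libraries differ; what it stands for is not given in the sources used here. A p that misses the threshold does not show that the lines are alike.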

How the data were processed

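Summed per-nucleus counts were compared between cell classes of 4 single-nucleus libraries. The deposited tables hold expected counts, genes by nuclei, that the authors made before deposit; Cell Ranger 3.1.0, Seurat 3.2 and the mm10 build are named per the submitters' processing notes, without their roles. The values are not whole, and the step that made them so is not given in the sources used here. A second deposited table repeats 480 of these nuclei.

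The members and gene lists were chosen with earlier results of these data known. Scrublet called 58 doublets (0.27%), too few to rely on, so the highest scores were removed at 0.8% per 1000 nuclei (947). Nuclei were clustered in scanpy 1.11.5 on 2000 variable genes without members or partners (30 components, 15 neighbours, Leiden resolution 1). Names required a score of at least 0.3 and at least 3 detected markers, but these limits did not settle every name. Clusters 5 (1.322 for oligodendrocytes, 7 markers) and 10 (1.57 for inhibitory neurons, 4 markers) met both and stayed unnamed. Their 10 leading genes held Enpp6 and Zfhx4, markers listed for other classes. Class sums were rounded and tested with edgeR 4.0.16 (filterByExpr, TMM, quasi-likelihood F test, library as block), p-values adjusted by Benjamini-Hochberg across every tested gene, and calls made under 0.05; sums of at least 20 nuclei entered, or 5 for sub-clusters. Scripts were tested on simulated data. Named members are those past the threshold with 1 direction in every library, by size of log2 difference, up to 12 each way and with at least 10 CPM (6 each way for partners); others are named within their family or as family examples. Alternatives included DESeq2 1.42.0, other filters and scalings, finer clusters and leaving out each library. Positions are from GENCODE and RefSeq. Protein sequences are not used here. A gene of the partner list is not reported here.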

Additional observations from a re-analysis of the deposited data

Results flagged for a closer look

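Of 56 groups of 4 libraries looked at, 1 had a library far from the others, where chance alone marks about 1 in 20. Endothelial Robo4 was at 213.63 CPM in Ucn3-Cre replicate 2 and at 170.62 to 177.86 in the other 3 libraries.

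The differences of Plxna2, Plxna1 and Epha6 had opposite signs in the mouse lines, every library of a line going the same way, and these contrasts between lines were not tested. Plxna2 differed between glutamatergic and inhibitory nuclei by -21.168 CPM in Ucn3-Cre and by 4.7455 in vGluT2-Cre libraries. For Plxna1 the same difference was -7.9451 and 3.0135 CPM. Epha6 differed between oligodendrocyte precursors and oligodendrocytes by 14.537 CPM in Ucn3-Cre and -2.577 in vGluT2-Cre libraries.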

How the results depend on the processing

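Of 1790 values of named genes under alternatives, 1747 kept their direction and side of the threshold, 38 lost their call and 5 reversed. All 5 reversals came from counting cluster 10 as inhibitory, where Slit1 (-2.308), Plxna4 (-0.493), Epha7 (-0.253), Srgap1 (-0.985) and Dpysl5 (-0.306) were lower in glutamatergic nuclei and 22 members were lower in all. Fewer genes were called between glutamatergic and inhibitory nuclei by DESeq2 (1645) and without the library as block (1688), and among inhibitory sub-clusters (308 and 263). Without a filter on low counts, 12 members were higher and 6 lower in endothelial than mural cells of 55 tested, with 14.5% of all genes called. Leaving out each library in turn gave 25 to 26 members higher and 10 to 11 lower in glutamatergic nuclei (2430 to 2937 of all genes called), 22 to 24 and 18 to 21 in astrocytes (7153 to 7779), 20 to 24 and 11 to 12 in precursors (4710 to 5406), 6 to 10 and 5 to 6 in endothelial cells (1101 to 1769), 23 to 31 members among glutamatergic sub-clusters (925 to 1296) and 10 to 13 among inhibitory ones (293 to 505). The lowest sub-cluster counts, 925 and 293, were without vGluT2-Cre replicate 1. Members whose highest class stood apart numbered 35 to 36, with 34.9% to 38.4% of all genes. Between the lines, the fit with the replicate block called 0 members; deviations of same-numbered libraries correlated at 0.027 over genes, and the numbers were not taken as pairs. A line left with 1 library was assumed to vary like the other. The cause of these changes was not tested.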
